A study of Mus musculus with 21 samples.

Results

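The 10 genes described here encode proteins of the podocyte foot process: the actin-binding proteins synaptopodin (Synpo) and alpha-actinin 4 (Actn4), the myosin Myo1e, the actin assembly and cytokinesis proteins Inf2 and Anln, the GTPase regulators Arhgap24 and Arhgdia, the apical membrane protein podocalyxin (Podxl) with its linker ezrin (Ezr), and the intermediate filament protein nestin (Nes). They were taken by gene symbol, all 10 of them are among the 27179 genes counted in each library, and all 10 passed the filter on low counts. In podocyte fractions of saline-treated middle-aged mice, scaled to library size, 6 of the 10 were lower than in young ones and 0 were higher. Of all genes tested 12.4% were lower and 12.2% higher. Podxl and Synpo moved most, 3.89-fold and 3.76-fold lower, while Ezr, Arhgdia, Anln and Myo1e did not pass the test. Scaled instead to 16 podocyte markers, whose mean level fell with age, 7 of the 10 were higher and 0 lower. On that scale 96.3% of all genes tested were higher and 0.22% lower. In middle-aged mice given MCC950, Actn4 and Ezr were higher than in saline-treated mice by small amounts, where 11.9% of all genes tested were higher. Against young mice, with library size scaling, 4 of the 10 were lower in MCC950-treated mice and 2 higher. Of all genes tested 16.5% were lower and 21.8% higher.

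Podocytes are the epithelial cells that wrap the capillaries of the kidney glomerulus. Their foot processes interlock over the capillary wall and are held apart by slit diaphragms, and a contractile and crosslinked actin cytoskeleton gives each process its shape. Synaptopodin and alpha-actinin 4 organise this actin, podocalyxin gives the cell surface its negative charge and is tied to actin through ezrin, and human mutations in ACTN4, MYO1E, INF2, ANLN and ARHGDIA cause inherited glomerular disease. Several of the 10 are not particular to podocytes, since ezrin also lines the tubular brush border, podocalyxin is also made by endothelium, and anillin is made by dividing cells.

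The mRNA came from podocyte fractions of single male C57BL/6J wildtype mice, enriched from cortex digests by magnetic sorting on nephrin, a slit diaphragm protein. The groups were 6 untreated young mice of 4 months, 7 middle-aged mice of 19.5 months given saline as vehicle, and 8 middle-aged mice given the NLRP3 inhibitor MCC950 at 10 mg/kg, both for 6 weeks from 18 months of age. Age and the saline treatment cannot be told apart in the comparison with young mice, which were untreated. The paper randomized mice of 18 months to MCC950 or saline, and took control mice of 4 months from its tissue archives. Whether the young libraries came from those archives is not given in the sources used here. Library totals ran from 27375870 to 36827823 counts in young, 45772937 to 84876399 in saline and 35440472 to 58247271 in MCC950 libraries, so every saline library was deeper than every young one. Genes of the mitochondrial genome took a median of 71.1%, 68.6% and 57.5% of these counts.

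The label podocyte was checked against markers. A list of 16 podocyte markers that holds none of the 10 genes summed to between 447 and 748 CPM (counts scaled to a common library size) in young, 264 to 400 CPM in saline and 296 to 406 CPM in MCC950 libraries, and no marker was at 0 throughout. Markers of other kidney cells were present in every library. The 14 proximal tubule markers summed to a median of 4041 CPM in young, 3693 CPM in saline and 6439 CPM in MCC950 libraries. With age the mean log2 level of the podocyte markers fell by 1.63 (15 of 16 lower), that of 11 endothelial markers fell by 0.94 (10 lower) and that of 8 mesangial and smooth muscle markers fell by 1.00 (5 lower), while the 12 leukocyte markers were higher by 1.02 on the log2 scale (4 called higher). By an exact two-sided permutation test p was 0.00117 for the podocyte, endothelial and mesangial lists, the smallest that 6 against 7 libraries allow, and 0.0035 for leukocytes. The 12 distal nephron markers fell by 0.34 with age (3 lower, exact permutation p = 0.00699). In a bulk library fewer podocytes and less RNA per podocyte cannot be told apart. This touches every comparison of the 10 genes, and of the other actin genes, given here.

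Levels were compared between genes as RPKM, the CPM divided by the length of a gene's exons in kilobases. In young libraries Podxl (chr6:31519493-31563937, minus strand of GRCm38) had the highest median at 107.8 RPKM and Arhgdia (chr11:120578099-120581624, minus), a GDP-dissociation inhibitor, followed at 89.3 RPKM, with overlapping ranges. Ezr (chr17:6738131-6782780, minus) stood at 42.4 RPKM, below every library of either. Actn4 (chr7:28893248-28962351, minus), which crosslinks actin filaments, reached 23.6 RPKM, and Synpo (chr18:60593981-60660173, minus) reached 16.6 RPKM. Nes (chr3:87971093-87980451, plus) had 14.6 RPKM and Arhgap24 (chr5:102207198-102905035, plus), a GTPase-activating protein for Rac, had 11.5 RPKM, and the neighbours from Actn4 down to Arhgap24 overlapped each in turn. Myo1e (chr9:70207350-70400067, plus), a membrane-bound myosin, stood at 5.55 RPKM, the formin Inf2 (chr12:112588744-112615557, plus) at 2.19 RPKM and Anln (chr9:22331214-22389211, minus), which bundles actin in the cleavage furrow, at 0.247 RPKM, none of these 3 overlapping its neighbours in the order. In saline and MCC950 libraries Podxl and Synpo stood lower in the order, and Arhgap24 and Nes, which overlapped in all 3 groups, changed places. In saline libraries Podxl, at 27.2 RPKM, came behind Arhgdia at 103 RPKM and Ezr at 46.4 RPKM without overlap, and Synpo at 4.42 RPKM came just behind Myo1e, whose range at a median of 4.76 RPKM it overlapped. In MCC950 libraries Podxl kept that place at 27.3 RPKM, now overlapping both Ezr at 53.0 RPKM and Actn4 at 22.1 RPKM, and Synpo at 5.57 RPKM stood between Nes at 8.04 RPKM and Myo1e at 4.63 RPKM and overlapped both. Anln was lowest in all 3 groups, with 29 to 193 reads per library, so its values carry the largest counting error of the 10.

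**Figure D1:**
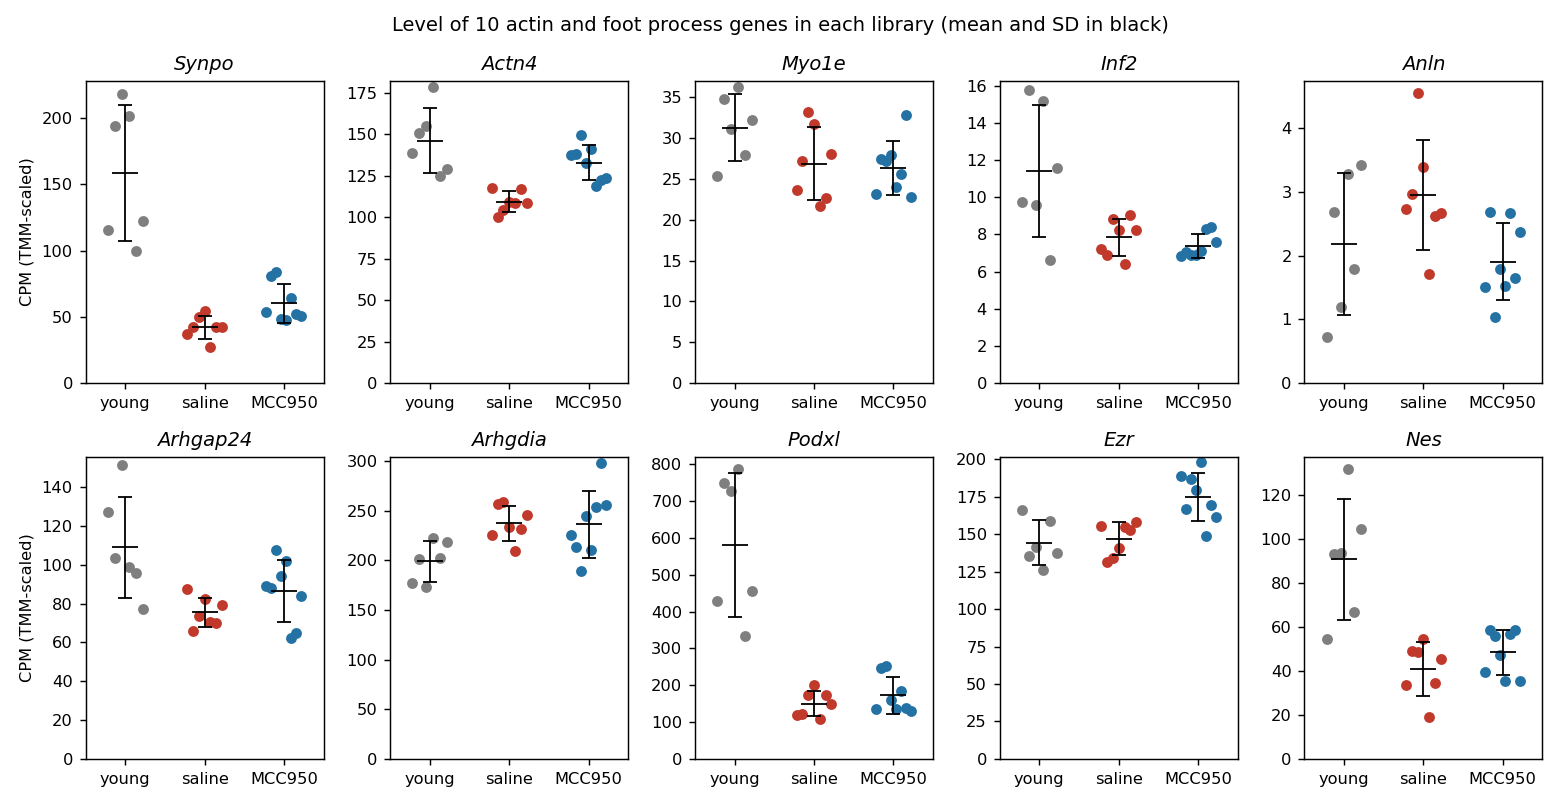
CPM of the 10 genes in each library (vertical axes, TMM-scaled, starting at 0) for the 6 young, 7 saline and 8 MCC950 libraries, 1 point per library with the group mean and SD in black. Synpo, Podxl and Actn4 had no saline library inside the young range, and in Actn4 all 8 MCC950 libraries lay above all 7 saline libraries.

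RefSeq on GRCm38.p6 gave promoter sequence (250 bases before to 50 after the start) for 7 of the 10 genes, in 9 entries. Synpo, Podxl and Arhgap24 had no entry. Both strands were searched for 6 motifs of factors that bind in podocytes or at actin genes, and a match describes the letters only. GCGTGGGNG, the Wt1 and Egr type of site, was in 2 of the 9 entries and in 1.90% of 32851 promoters of the same length. TGCTGA, a Maf site in part, was in 2 entries and in 19.5% of promoters, and the CArG box, the site of serum response factor, was in 1 entry and in 1.63% of promoters. TAATTA (5.29% of promoters), TGTTTAC (3.65%) and CAGCTG (16.3%) were in none of the 9 entries. The 4 promoters with a match are shown as the 250 bases before the annotated start, 5′ to 3′ on the strand of the gene, with each match in capitals. In Actn4 the capitals are the Wt1 and Egr type of site read on the opposite strand. In Anln they are the same site on the strand of the gene, 189 bases before the start, in Nes TGCTGA at 144 bases, and in Myo1e TGCTGA at 43 bases followed by a CArG box at 32 bases.
Nes chr3:87970843-87971092, plus strand: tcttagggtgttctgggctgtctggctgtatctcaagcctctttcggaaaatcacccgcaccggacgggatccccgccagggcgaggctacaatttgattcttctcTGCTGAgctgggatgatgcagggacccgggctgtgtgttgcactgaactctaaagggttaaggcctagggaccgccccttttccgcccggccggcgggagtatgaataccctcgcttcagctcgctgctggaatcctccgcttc
Actn4 chr7:28962333-28962582, minus strand: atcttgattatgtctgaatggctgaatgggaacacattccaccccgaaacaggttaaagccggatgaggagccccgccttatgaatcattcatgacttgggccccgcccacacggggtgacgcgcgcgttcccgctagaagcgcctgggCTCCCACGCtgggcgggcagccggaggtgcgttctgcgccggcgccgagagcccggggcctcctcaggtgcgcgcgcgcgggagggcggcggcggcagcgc
Anln chr9:22389207-22389456, minus strand: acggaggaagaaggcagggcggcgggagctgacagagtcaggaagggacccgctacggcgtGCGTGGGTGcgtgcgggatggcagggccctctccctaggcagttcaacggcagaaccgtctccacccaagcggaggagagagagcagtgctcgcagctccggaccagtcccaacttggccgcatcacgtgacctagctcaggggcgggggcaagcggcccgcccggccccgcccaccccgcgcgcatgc
Myo1e chr9:70207100-70207349, plus strand: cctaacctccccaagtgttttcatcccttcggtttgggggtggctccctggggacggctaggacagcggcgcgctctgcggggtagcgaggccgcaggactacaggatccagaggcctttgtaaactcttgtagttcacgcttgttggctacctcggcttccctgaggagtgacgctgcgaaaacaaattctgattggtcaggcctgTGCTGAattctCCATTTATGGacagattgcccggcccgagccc

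The comparison of saline with young libraries asks which of the 10 genes differ with middle age. By edgeR's quasi-likelihood test, 6 of the 10 genes were lower and 0 were higher at an adjusted p under 0.05 (Benjamini-Hochberg over 16377 genes), where 12.4% of all genes tested were called lower and 12.2% higher. Without adjustment 1 gene (Arhgdia) was higher at p under 0.05, and DESeq2 called 0 higher. The median log2 fold change of the 10 was -0.47, beside 0.02 over all genes tested. The genes that fell were the apical Podxl, the actin-binding Synpo and Actn4, the filament gene Nes, the formin Inf2 and the Rac regulator Arhgap24.

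Among the actin-binding proteins, Synpo, which binds alpha-actinin and steadies stress fibres, had 100.1 CPM in the lowest young library, a median of 158 CPM and 218 CPM in the highest. The saline libraries had 27.2, 42.2 and 54.4 CPM for the lowest, the median and the highest. Every saline library was thus below every young library. Synpo fell by 1.91 on the log2 scale (standard error 0.20, 95% interval -2.33 to -1.50), a level 3.76-fold lower, with an edgeR adjusted p of 6.39e-06. The young libraries themselves split into 3 low and 3 high: replicates 1, 5 and 6 had 115.9, 100.1 and 122 CPM, and replicates 2, 3 and 4 had 194, 218 and 202 CPM. Podxl split the same 6 libraries in the same way, and so did the podocyte marker score, at 3.53 to 4.15 against 4.71 to 4.84 on the log2 scale. Whether that split reflects podocyte content was not tested.

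Actn4 had 125 CPM in the lowest young library, a median of 145 CPM and a highest value of 178 CPM. In saline libraries it had 100.3, 108.8 and 117.4 CPM. The ranges did not overlap, though the distance was small, and Actn4 fell by 0.42 (standard error 0.08, edgeR adjusted p = 0.00111), a level 1.34-fold lower. With the leukocyte marker score as a covariate its log2 fold change was -0.26 (edgeR adjusted p = 0.0629). Ranges did not overlap in 3 of the 10 genes (Synpo, Podxl and Actn4), all lower, where 4.87% of all genes tested were lower without overlap. The exons of Actn4 share 316 bases with Capn12 on the opposite strand, and the strand setting of the counting is not given in the sources used here, so a share of its reads could belong to Capn12.

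Podxl, the sialomucin that keeps the faces of foot processes apart, had 334 CPM in the lowest young library, a median of 592 CPM and 787 CPM in the highest. In saline libraries it had 109.3, 149 and 201 CPM. The groups did not overlap, and Podxl had the largest fall of the 10, by 1.96 on the log2 scale (standard error 0.22, 95% interval -2.42 to -1.50, edgeR adjusted p = 1.1e-05), a 3.89-fold lower level. Ezr, which ties podocalyxin to actin, had 126, 139 and 166 CPM in young and 132, 153 and 158 CPM in saline libraries as lowest, median and highest. The saline range lay inside the young range, and the log2 fold change was 0.03 (95% interval -0.15 to 0.20, edgeR adjusted p = 0.858).

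Nes, which builds intermediate filaments in podocytes, had 54.5 CPM in the lowest young library, a median of 93.4 CPM and 132 CPM in the highest. Saline libraries had 19.2, 45.6 and 54.7 CPM. The groups met at their edges only, with 6 of 7 saline libraries below every young library. Nes fell by 1.16 on the log2 scale (standard error 0.22, edgeR adjusted p = 0.000778), 2.23-fold. With Synpo and Podxl it made up the 3 genes that passed the second rule, an unadjusted p under 0.05 and over 2-fold lower, which 2.92% of all genes tested did.

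The other members moved less. Inf2, a formin that assembles and severs actin filaments, ran from 6.62 to 15.8 CPM in young libraries with a median of 10.7 CPM. In saline libraries it ran from 6.41 to 9.02 CPM with a median of 8.22 CPM. All but 1 of the saline libraries lay within the young range, and Inf2 fell by 0.55 (standard error 0.15, edgeR adjusted p = 0.00905). Arhgap24 ran from 77.3 to 151 CPM in young libraries (median 101.3 CPM) and from 65.8 to 87.3 CPM in saline libraries (median 73.4 CPM). It had 4 of 7 saline libraries below every young one and fell by 0.53 (standard error 0.14, edgeR adjusted p = 0.00921), but with the leukocyte marker score as a covariate its log2 fold change was -0.04 (adjusted p = 0.839). Arhgdia ran from 173 to 222 CPM in young (median 202 CPM) and from 209 to 259 CPM in saline libraries (median 233 CPM), with 6 of 7 saline libraries above every young one. Its log2 fold change of 0.25 (95% interval 0.05 to 0.46) had an edgeR adjusted p of 0.0694 and did not pass. Arhgdia passed with the proximal tubule score as a covariate (0.21, edgeR adjusted p = 0.0413) and without MCC950 replicate 7 (adjusted p = 0.0444). Myo1e had medians of 31.7 CPM in young and 27.2 CPM in saline libraries, a log2 fold change of -0.22 (95% interval -0.45 to 0.01, edgeR adjusted p = 0.154). With the proximal tubule score as a covariate Myo1e was lower by the test, at -0.29 (edgeR adjusted p = 0.00463). Anln had medians of 2.24 and 2.73 CPM, a log2 fold change of 0.44 whose 95% interval from -0.19 to 1.07 was the widest of the 10 (edgeR adjusted p = 0.316). For Myo1e and Anln the groups overlapped broadly, and the 9 cycling cell markers, which include no member, were higher by 0.63 in mean log2 level (3 called higher, exact permutation p = 0.049).

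**Figure D2:**
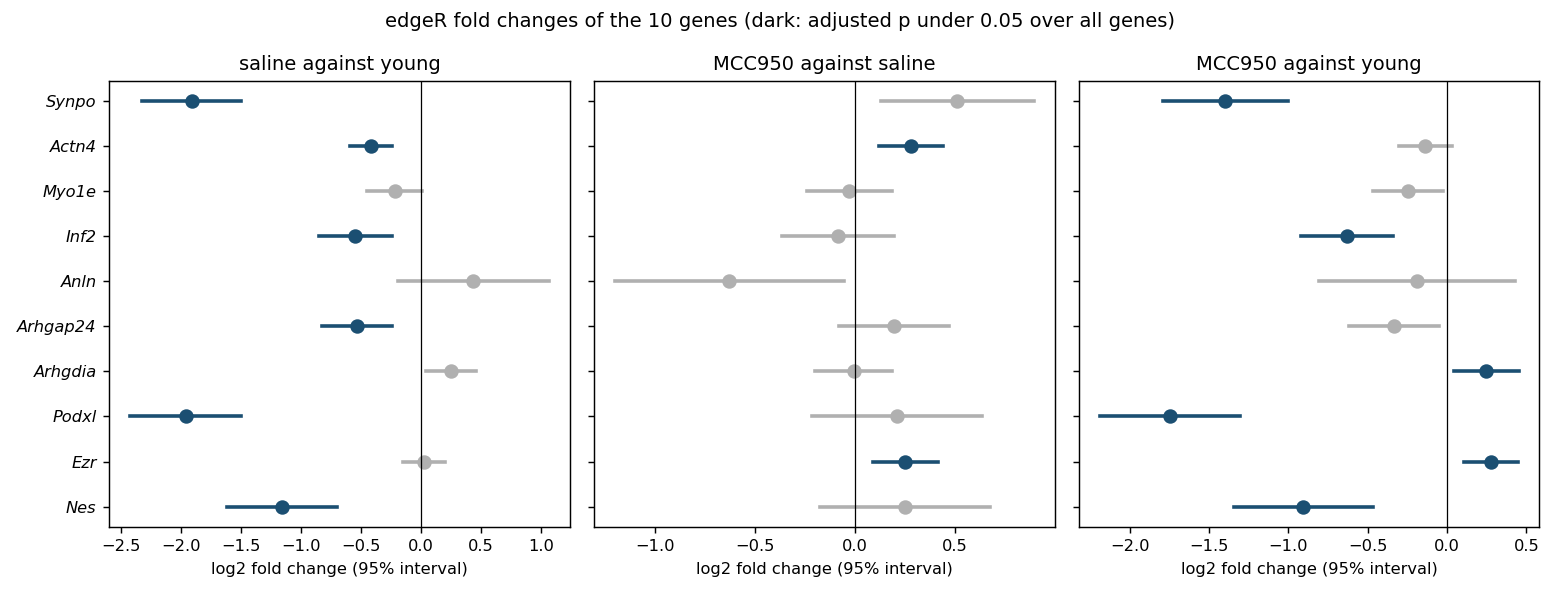
log2 fold change with its 95% interval for each of the 10 genes (horizontal axes) in the 3 comparisons, dark where the edgeR adjusted p over all genes was under 0.05. Saline against young has 6 dark points, all below 0, and MCC950 against saline has 2, Actn4 at 0.28 and Ezr at 0.25.

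The comparison of MCC950 with saline libraries asks what the inhibitor changed at the same age. Of the 10 genes 2 were higher, Actn4 and Ezr, and 0 were lower by edgeR, where 11.9% of all genes tested were called higher and 4.84% lower. Without adjustment 1 gene (Anln) was lower at p under 0.05, and DESeq2 called 0 lower. Anln was called lower with only the 2 groups in the fit (-0.65, edgeR adjusted p = 0.0470). The same held with the podocyte score as a covariate (-0.82, edgeR adjusted p = 0.0450). The median log2 fold change of the 10 was 0.20, beside 0.00 over all genes tested, and 0 of the 10 passed the rule of over 2-fold, which 1.68% of all genes tested passed as higher and 1.03% as lower. The saline libraries are shared with the comparison with age, so an error in them enters both with opposite sign.

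Actn4 had 119 CPM in the lowest MCC950 library, a median of 135 CPM and 149 CPM in the highest, against 100.3, 108.8 and 117.4 CPM in saline. All 8 MCC950 libraries were above all 7 saline libraries, which held for 1.15% of all genes tested. The log2 fold change was 0.28 (standard error 0.08, 95% interval 0.12 to 0.44, edgeR adjusted p = 0.0191), an increase of 21.5%. With a marker score as a covariate the call was lost, at a log2 fold change of 0.21 for the leukocyte score (edgeR adjusted p = 0.0507), 0.21 for the podocyte score (adjusted p = 0.0573) and 0.28 for the proximal tubule score (adjusted p = 0.0854). Of all 16377 genes tested, these fits called 1185, 2446 and 455 higher in that order, beside 1945 in the fit without a score. Why the call of Actn4 was lost was not tested.

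Ezr had 149, 174 and 198 CPM in MCC950 libraries as lowest, median and highest, against 132, 153 and 158 CPM in saline. All but 1 of the 8 MCC950 libraries were above every saline library. The log2 fold change was 0.25 (standard error 0.08, 95% interval 0.09 to 0.42, edgeR adjusted p = 0.0327), an increase of 19.1%. Of the 14 proximal tubule markers 7 were called higher and 0 lower, and their mean log2 level was 0.81 higher in MCC950 libraries (exact permutation p = 0.00466). With that score as a covariate the log2 fold change of Ezr was 0.11 (edgeR adjusted p = 0.431). That fit called 455 of all 16377 genes tested higher, beside 1945 without the score. The part of these markers in the higher level of Ezr was not tested. The Ezr call was also lost when any of 7 libraries was left out (saline replicate 2, 3 or 4, MCC950 replicate 1, 3, 4 or 5), with adjusted p between 0.0547 and 0.0724.

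Synpo had 47.7, 53.1 and 83.6 CPM in MCC950 libraries as lowest, median and highest, against 27.2, 42.2 and 54.4 CPM in saline. The groups overlapped, with 3 of 8 MCC950 libraries above every saline one. The log2 fold change of 0.51 (standard error 0.18, 95% interval 0.13 to 0.89) had an edgeR adjusted p of 0.0586. It lay on the other side of the threshold with DESeq2 (0.0479), with only the 2 groups in the fit (0.0413), with the proximal tubule score as a covariate (0.0469) and without young replicate 5 (0.0466). The podocyte markers were higher by 0.40 in mean log2 level in MCC950 libraries (3 of 16 called higher, exact permutation p = 0.0457).

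Podxl did not follow Synpo in size. It had a median of 150 CPM in MCC950 against 149 CPM in saline libraries, with 2 MCC950 libraries (replicates 2 and 3, at 246.3 and 253 CPM) above every saline one, and a log2 fold change of 0.21 (95% interval -0.21 to 0.63, edgeR adjusted p = 0.507). Whether the changes of Synpo and Podxl differ was not tested. Nes had medians of 51.6 and 45.6 CPM and a log2 fold change of 0.25 (95% interval -0.18 to 0.67, edgeR adjusted p = 0.431), which was 0.85 (adjusted p = 0.0143) with the proximal tubule score as a covariate. Arhgap24 was at 0.20 (-0.08 to 0.47), Arhgdia at 0.00 (-0.20 to 0.19), Myo1e at -0.03 (-0.24 to 0.19) and Inf2 at -0.09 (-0.37 to 0.19) on the same scale with 95% intervals. Anln, at 1.04, 1.72 and 2.68 CPM in MCC950 against 1.72, 2.73 and 4.55 CPM in saline libraries, had a log2 fold change of -0.63 (95% interval -1.20 to -0.06, edgeR adjusted p = 0.121), with 4 of 8 MCC950 libraries below every saline one.

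MCC950 libraries were also set against the young ones. By edgeR 4 of the 10 genes were lower, where 16.5% of all genes tested were, and 2 were higher, where 21.8% were. Podxl was lower by 1.75 on the log2 scale (-1.75, standard error 0.21, adjusted p = 6.07e-06) and Synpo by 1.40 (-1.40, standard error 0.19, adjusted p = 1.82e-05), and for both every MCC950 library was below every young one, as for 4.66% of all genes tested. Nes (-0.91, adjusted p = 0.00236) and Inf2 (-0.63, adjusted p = 0.00159) were lower with overlap. Ezr was higher by 0.28 on the log2 scale (adjusted p = 0.0116, or 0.0697 with the proximal tubule score as a covariate) and Arhgdia by 0.25 (adjusted p = 0.0487). The Arhgdia call was lost when any of 15 libraries was left out (all but young replicates 4 and 6, saline replicate 5 and MCC950 replicates 2, 3 and 5), with adjusted p up to 0.119. It was also lost with DESeq2 (adjusted p = 0.0833), median-ratio scaling (0.111), thinned libraries (0.123), no filter on low counts (0.0536), only the 2 groups in the fit (0.154), the replicate block (0.126) and the podocyte score as a covariate (0.648). With the leukocyte score as a covariate the log2 fold change of Arhgdia was 0.065 (edgeR adjusted p = 0.456). Actn4, at a log2 fold change of -0.14 (95% interval -0.30 to 0.03, adjusted p = 0.189), did not pass, nor did Arhgap24 at -0.33 (adjusted p = 0.0592), Myo1e at -0.25 (adjusted p = 0.0722) or Anln at -0.19 (adjusted p = 0.641), all by edgeR. Arhgap24 passed with median-ratio scaling (adjusted p = 0.0312), DESeq2 (0.0228), thinned libraries (0.0337) and the proximal tubule score as a covariate (0.0196). Myo1e passed with the replicate block (edgeR adjusted p = 0.0108) and with the leukocyte score as a covariate (0.0138), and Actn4 passed with DESeq2 (0.0458).

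The 10 genes were also read against the other podocyte genes of the same library, by a scaling that sets the mean log2 level of the 16 podocyte markers equal in all libraries. This scaling moves every gene by about 1.66 on the log2 scale in the comparison with age, -0.41 for MCC950 against saline and 1.25 for MCC950 against young. With age 7 of the 10 genes were then higher, where 96.3% of all genes tested were, and 0 were lower, where 0.22% were. The 3 that did not pass were Synpo at -0.21 (95% interval -0.67 to 0.25, edgeR adjusted p = 0.364), Podxl at -0.25 (-0.74 to 0.24, adjusted p = 0.317) and Nes at 0.48 (-0.02 to 0.97, adjusted p = 0.0597). For these 3 no difference from the mean of the podocyte markers was detected in this fit, within the width of those intervals. Nes was called higher without young replicate 5 (edgeR adjusted p = 0.0219) or 6 (0.0412) and without saline replicate 5 (0.0330) or 6 (0.0463). It was also called higher with a replicate block (0.45, edgeR adjusted p = 0.0210). Actn4 (1.26), Arhgap24 (1.12), Inf2 (1.16), Myo1e (1.41), Ezr (1.63), Arhgdia (1.86) and Anln (2.07) were higher relative to the markers, on the log2 scale. The direction of Actn4, Arhgap24 and Inf2 with age therefore differs between the scalings, lower in CPM and higher against the podocyte markers. With the podocyte score as a covariate instead, 0 of the 10 genes were called with age, in a fit that called 6 of 16377 genes and in which the scores of young (3.53 to 4.84) and saline libraries (1.98 to 3.15) did not overlap. Nphs1 and Wt1 themselves each fell by 2.78 on the log2 scale with age after TMM scaling. When these 2 genes alone set the scaling, Synpo and Podxl were each higher by 1.05 (edgeR adjusted p = 0.0170 and 0.0199) and Nes by 1.67 (adjusted p = 0.000196), where 16282 of all 16377 genes tested were called higher.

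For MCC950 against saline, relative to the podocyte markers, 0 of the 10 genes were higher and 1 was lower, where 0.165% and 3.94% of all genes tested were. The gene was Anln (-0.99, 95% interval -1.57 to -0.42, edgeR adjusted p = 0.0407), and this call was lost when any of 10 libraries was left out and when Nphs1 was taken out of the markers (adjusted p = 0.0602). Actn4 stood at -0.15 (-0.64 to 0.35), Ezr at -0.17 (-0.72 to 0.37) and Synpo at 0.10 (-0.33 to 0.53), so the higher CPM of Actn4 and Ezr did not pass the test on this scale. Against young libraries 7 genes were higher, where 89.1% of all genes tested were, and Synpo (-0.11, adjusted p = 0.633), Podxl (-0.47, adjusted p = 0.0568) and Nes (0.35, adjusted p = 0.160) did not pass by edgeR. Podxl was called lower when Nphs1 was taken out of the markers (-0.49, edgeR adjusted p = 0.0358). Leaving out young replicate 5 (adjusted p = 0.04996) or saline replicate 5 (0.0329) did the same.

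**Figure D3:**
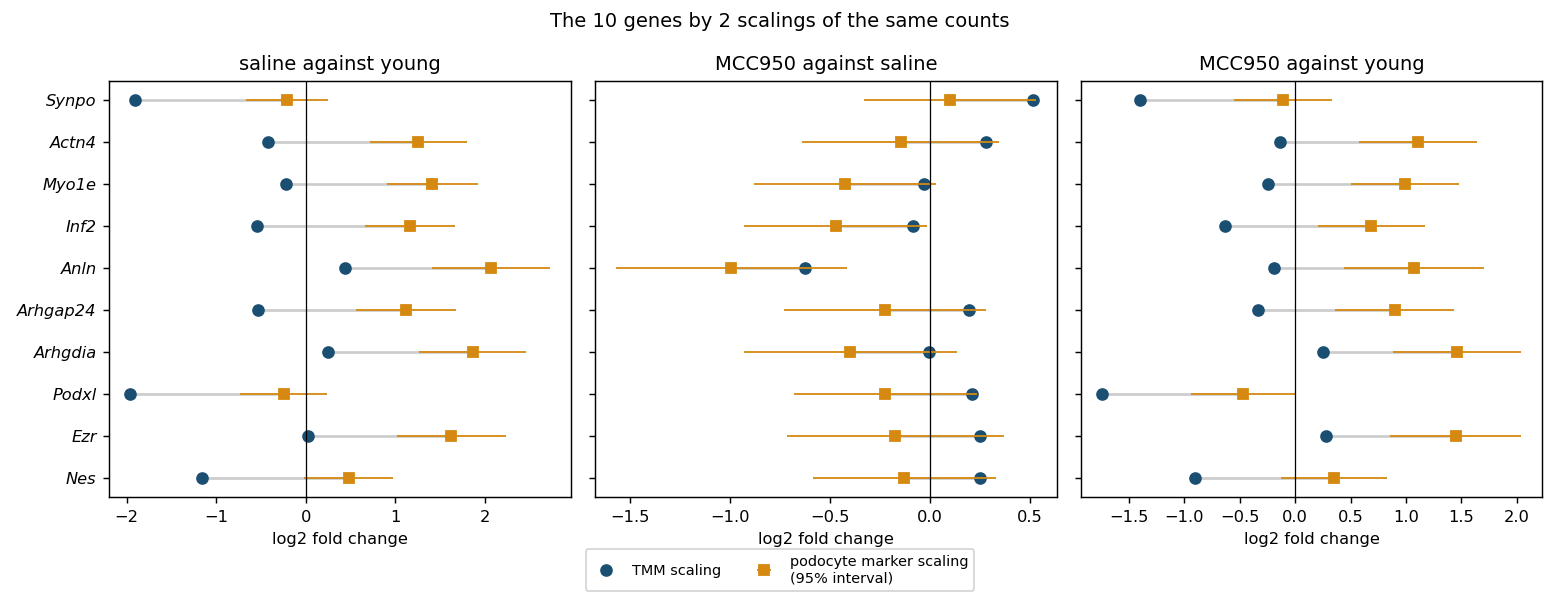
log2 fold change of the 10 genes (horizontal axes) in the 3 comparisons after TMM scaling (circles) and after scaling to 16 podocyte markers (squares, with 95% intervals), joined for each gene. With age Synpo moved from -1.91 to -0.21 and Podxl from -1.96 to -0.25, while Ezr moved from 0.03 to 1.63.

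Across the 21 libraries, after the mean of each group was subtracted, the genes followed the marker lists to different degrees. These correlations are descriptions, since the libraries share depth and sorting, and Thsd7a below is itself a podocyte marker of the list. Synpo and Podxl followed the podocyte score, with a Pearson r of 0.946 and 0.945. Both also followed the endothelial score, Podxl with 0.920 and Synpo with 0.807, and Nes had 0.647 with that score. With the proximal tubule score Ezr had 0.624, Arhgap24 0.366 and Actn4 0.030. The other members ran opposite to that score, from Podxl at -0.371 to Nes at -0.755 and Myo1e at -0.805, with Arhgdia at -0.692. With the cycling cell score Anln had 0.667, Arhgdia 0.639 and Ezr -0.553. Among the 10 genes the closest were Synpo with Podxl (0.939) and Myo1e with Nes (0.855), and the most opposed were Arhgap24 with Arhgdia (-0.752) and Ezr with Anln (-0.749). Actn4 ran with Podxl at 0.605 and with Synpo at 0.522, and with Nes at 0.145. Among all genes, those most like Synpo were Myom2 (0.948), Thsd7a (0.943) and Podxl itself (0.939), and those most like Podxl were Bmpr2 (0.965), Thsd7a (0.960) and Dlc1 (0.954). Nes was most like Col15a1 (0.923), Lix1l (0.902) and Map4 (0.900), Myo1e most like Soga1 (0.871), Alcam (0.859) and Nes (0.855), and Actn4 most like Plod2 (0.872), Zfp462 (0.872) and Ammecr1l (0.868). Ezr was most like Pop5 (0.902), Uqcrh (0.890) and Ndufb4b (0.882), of which the last 2 encode subunits of the respiratory chain. Arhgap24 was most like Sgpp2 (0.934), Scnn1g (0.930) and Spock3 (0.925), and Scnn1g is a marker of the distal nephron. Arhgdia was most like Gusb (0.954), Ifngr2 (0.950) and Gltp (0.945), Inf2 most like Cnot3 (0.832), Liph (0.823) and Lsm11 (0.799), and Anln most like Arsa (0.927), Tm4sf19 (0.907) and Mctp1 (0.901).

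Without that subtraction the differences between groups enter the likeness. Podxl was then most like Thsd7a (0.993), Angptl2 (0.982) and Sulf1 (0.976), and Synpo most like Myom2 (0.984), Arhgap28 (0.984) and Sulf1 (0.980). Actn4 was most like P4ha2 (0.945), Vegfa (0.926) and Akap2 (0.908), Nes most like Gucy1a2 (0.941), Itga8 (0.934) and Vash1 (0.933), Myo1e most like Alcam (0.868), Syne1 (0.863) and Prkx (0.859), and Inf2 most like Marveld1 (0.898), Myo1c (0.881) and Kctd10 (0.879). Arhgap24 was most like Wdr72 (0.948), Sh3gl2 (0.925) and Pgam2 (0.923), Arhgdia most like Gusb (0.962), Tpm3 (0.949) and Ctsz (0.947), Ezr most like Pop5 (0.954), Habp4 (0.941) and Ndufv2 (0.939), and Anln most like Arsa (0.932), Mctp1 (0.917) and D430020J02Rik (0.906).

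**Figure D4:**
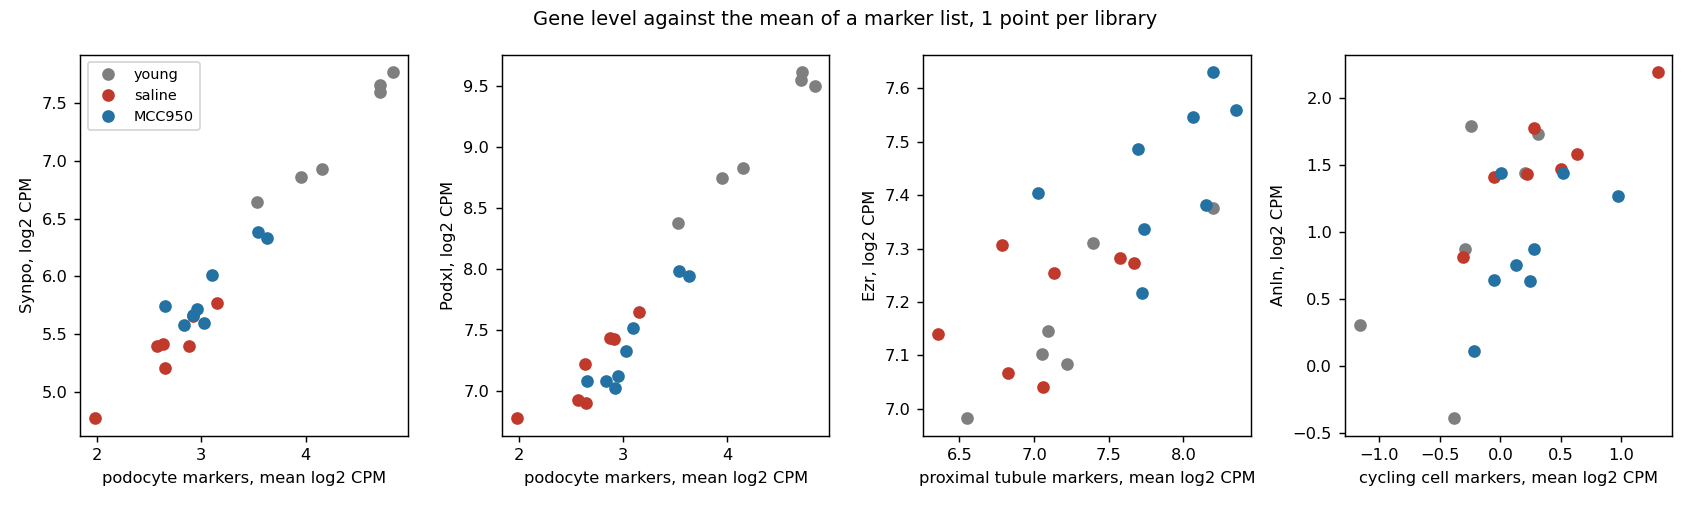
log2 CPM of Synpo, Podxl, Ezr and Anln (vertical axes) against the mean log2 CPM of a marker list (horizontal axes: podocyte, podocyte, proximal tubule and cycling cell markers), 1 point for each of the 21 libraries. Synpo and Podxl lie close to a line across all 3 groups (Pearson r of 0.985 and 0.976). Ezr and Anln rise with their lists but scatter more widely (0.772 and 0.641).

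A list of 97 other actin cytoskeleton genes, all of which were tested, gives the surroundings of the 10. After TMM scaling 35 of the 97 were lower with age, where 12.4% of all genes tested were, and 11 were higher, where 12.2% were. Their median log2 fold change was -0.17 beside 0.02 over all genes tested. Scaled to the 16 podocyte markers instead, 88 of the 97 were higher with age, where 96.3% of all genes tested were. On that scale 1 was lower, where 0.22% were. The tallies by group that follow are after TMM scaling. Of the genes that link the membrane to actin 12 of 18 were lower and 0 higher, with a median of -0.51. The smallest adjusted p among the lower genes were those of Magi2, a scaffold of the slit diaphragm (median 11.3 CPM in young and 3.71 CPM in saline libraries, log2 fold change -1.54), Clic5, a partner of ezrin and podocalyxin (-1.53), and Srgap1, a GTPase-activating protein (15.7 and 3.53 CPM, -2.23). All 3 had no overlap between the groups, where 4.87% of all genes tested were lower without overlap. Actin assembly and turnover genes were divided, with 6 of 19 higher, 4 lower and a median of 0.25. The higher genes of smallest adjusted p over the list were Arpc3, a subunit of the Arp2/3 complex (22.9 and 33.6 CPM, 0.55, edgeR adjusted p = 0.000218), Cfl1, which severs actin (168 and 233 CPM, 0.50, adjusted p = 0.00217), and Pfn1, which delivers actin monomers (99.2 and 159 CPM, 0.67, adjusted p = 0.00242). These 3 are expressed in most cell types, and the leukocyte markers were higher in the same libraries, as given above. The part of those markers in this result was not tested. In other groups, 4 of 16 crosslinkers were lower and 1 higher, 3 of 10 myosins were lower and 1 higher, 2 of 7 intermediate filament genes were lower and 0 higher, and 2 of 7 septin and cytokinesis genes were lower and 1 higher.

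With MCC950, 7 of the 97 genes were higher than in saline libraries, where 11.9% of all genes tested were, and 3 were lower, where 4.84% were, with a median of -0.03. Scaled to the podocyte markers, 0 were higher and 3 were lower, where 0.165% and 3.94% of all genes tested were. On that scale 80 were higher and 0 lower than in young libraries, where 89.1% and 0.238% of all genes tested were. The values that follow are after TMM scaling. The higher genes of smallest adjusted p were Slc9a3r1, a scaffold that binds ezrin (63.3 CPM in saline and 95.6 CPM in MCC950 libraries, log2 fold change 0.55, edgeR adjusted p = 0.00628, no overlap), Vil1, the villin of the brush border (16.0 and 33.3 CPM, 0.97, adjusted p = 0.0105), and Srgap1 (3.53 and 5.51 CPM, 0.88, adjusted p = 0.0173). The proximal tubule markers were higher in the same libraries, as given above, and their part in this result was not tested. The 3 lower genes were Utrn (23.4 and 17.0 CPM, -0.41, adjusted p = 0.00264), Sept2 (45.7 and 39.7 CPM, -0.21, adjusted p = 0.0269) and Cd2ap, an adaptor of nephrin (48.4 and 43.7 CPM, -0.18, adjusted p = 0.0290). Utrn and Cd2ap had no overlap between the groups. The share of all genes tested that were lower without overlap in this comparison is not given here. Being higher without overlap, as Slc9a3r1 was, held for 1.15% of all genes tested. Against young libraries 37 of the 97 genes were lower in MCC950 libraries, where 16.5% of all genes tested were, and 11 were higher, where 21.8% were, led by Utrn (-0.92, edgeR adjusted p = 3.7e-07), Cd2ap (-0.52, adjusted p = 2.33e-06) and Slc9a3r2 (-1.37, adjusted p = 2.59e-06) among the lower and Arpc3 (0.57, adjusted p = 5.97e-05), Pfn1 (0.72, adjusted p = 0.000723) and Cfl1 (0.43, adjusted p = 0.00315) among the higher. Cd2ap and Utrn were lower in saline than in young libraries and lower again in MCC950 than in saline libraries, whereas Srgap1 and Magi2, lower with age, were higher with MCC950 (0.88 and 0.48), in comparisons that share the saline libraries.

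**Figure D5:**
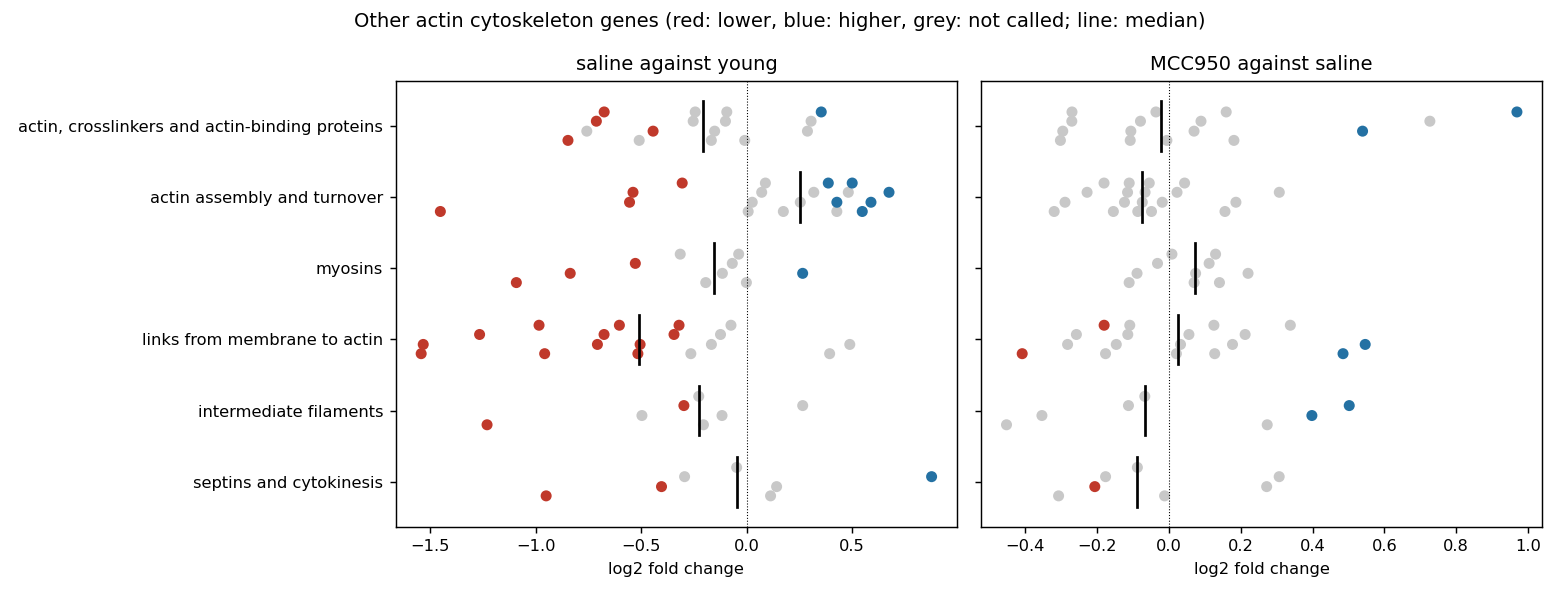
log2 fold change of 77 of the 97 other actin cytoskeleton genes (horizontal axes) in 6 groups, for saline against young and MCC950 against saline, 1 point per gene, red where lower, blue where higher and grey where the edgeR test was not passed, with the group median as a line. After TMM scaling 12 of the 18 genes that link membrane to actin were lower with age and 0 higher.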

How the data were processed

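Podocyte fractions were sorted from each mouse and sequenced as mRNA. The authors trimmed the reads with Trim Galore, aligned them with Bowtie2 to mm10 (GRCm38) and deposited featureCounts read counts for 27179 genes in each of 21 libraries, without normalization. The annotation and the strand setting are not given in the sources used here. The deposited table of normalized values was not used. RefSeq named 25275 of the genes and GENCODE another 18, while 1886 had no name. No library repeats another of its group, the chi-square divided by its degrees of freedom being at least 16.7.

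The counts went into a robust quasi-likelihood F test (edgeR 4.0.16, R 4.3.3) after scaling by the trimmed mean of M values (TMM) and filterByExpr, with all 3 groups in a single fit. 16377 genes passed the filter on low counts, and p was adjusted by Benjamini-Hochberg over all of them. DESeq2 1.42.0 was an alternative. Marker scores were means of log2 CPM (prior count 2), compared by exact two-sided permutation tests. The p-values measure the spread between mice within these groups, not between repeats of the experiment. Fits were tested on simulated data first.

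The 10 genes, the marker lists and the list of 97 actin genes were chosen with earlier results of these data known. All 10 genes are named, with the 3 genes of smallest adjusted p in each direction of the list of 97 and the 3 genes most like each of the 10. Replicate numbers were not taken as pairs. Same-numbered libraries correlated at -0.061 to 0.347 for age, -0.144 to 0.335 for MCC950 against saline and -0.013 to 0.401 for MCC950 against young. Libraries of different numbers were not compared in this way, so these values cannot show whether pairs exist. Alternatives were median-ratio scaling, other filters, mitochondrial genes left out, only the groups compared, marker scores as covariates, thinning to 5804891 counts outside the mitochondrial genes, a replicate block, and leaving out each library. Some genes and 1 group of the list are not reported here.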

Additional observations from a re-analysis of the deposited data

How the results depend on the processing

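Leaving out each library in turn gave 6 to 7 genes called with age, 1 to 3 for MCC950 against saline (1 without saline replicate 2, 3 or 4 or MCC950 replicate 1, 3, 4 or 5, and 3 without young replicate 5) and 5 to 7 for MCC950 against young. Relative to the podocyte markers it gave 7 to 8, 0 to 1 (0 without saline replicate 1, 2, 3, 5 or 7 or MCC950 replicate 2, 3, 4, 5 or 7) and 7 to 8. The 6 genes lower with age stayed past the threshold in each of these fits, with Arhgap24 reaching the highest adjusted p at 0.0357 (edgeR). Values near 0 changed sign in these fits. Ezr with age ran from -0.0094 to 0.0704 (below 0 without young replicate 4), and for MCC950 against saline Arhgdia ran from -0.0595 to 0.0358 and Myo1e from -0.0793 to 0.0302. Relative to the podocyte markers Actn4 ran from -0.23 to 0.0071 and Ezr from -0.27 to 0.0015, both above 0 only without saline replicate 5. The lists of other actin genes kept counts within 1.5 times under DESeq2 and without the filter on low counts.

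For MCC950 against saline, 4 of the 10 genes were called with only these groups in the fit (3 higher, 1 lower). That fit called 1958 of 16191 genes higher and 1066 lower. After thinning 1 was called (higher), where 1122 of 14793 genes were higher and 843 lower. With the leukocyte score 0 were called, where 1185 of 16377 genes were higher and 849 lower. With the podocyte score 0 of the 10 were called with age, where 6 of 16377 genes were called. For MCC950 against young 0 were called with that score, where 102 of 16377 genes were lower and 36 higher. Relative to the podocyte markers, MCC950 against saline gave 0 without Nphs1, where 326 of 16377 genes were called lower and 26 higher. It gave 9 (all lower) with Nphs1 and Wt1 alone, where 14931 of 16377 genes were called lower and Synpo stood at -0.76. With those 2 genes Synpo was at 1.05 and Podxl at 1.05 with age, and Synpo at 0.29 for MCC950 against young. With the podocyte score the sign turned with age for Inf2 (0.14), Ezr (-0.22), Nes (0.0626) and Myo1e (0.27), for MCC950 against saline for Arhgdia (0.0077), Nes (-0.0267) and Podxl (-0.19), and for MCC950 against young for Nes (0.0359), Actn4 (0.0855), Anln (0.50) and Myo1e (0.13). With the leukocyte score it turned with age for Arhgdia (-0.0498) and Anln (-0.27), and for MCC950 against saline for Arhgdia (0.11), Arhgap24 (-0.0147) and Myo1e (0.0502). With the proximal tubule score it turned for MCC950 against saline for Arhgdia (0.18), Inf2 (0.16) and Myo1e (0.26), and for MCC950 against young for Anln (0.35). Without a filter Arhgdia was at 0.00069 for MCC950 against saline. The cause of these changes was not tested.

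With replicate number as a replicate block, 6 genes were lower with age, where 1733 of 16377 genes were. For MCC950 against saline 2 were higher, where 1876 were. For MCC950 against young 6 were called, where 2283 genes were lower and 3467 higher. Relative to the podocyte markers 8 were higher with age, where 15802 genes were, and 7 for MCC950 against young, where 14735 were. On that scale 2 were lower for MCC950 against saline, where 4944 genes were, beside 646 without the block. After TMM scaling the block put Synpo at 0.54 for MCC950 against saline (edgeR adjusted p = 0.0201), Ezr at 0.27 (adjusted p = 0.0659) and Myo1e at 0.0085. For MCC950 against young 1 gene was then higher and 5 lower, with Arhgdia at 0.16 (adjusted p = 0.126) and Myo1e at -0.27 (adjusted p = 0.0108).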

Other observations

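In MCC950 against saline libraries the mean log2 level of the leukocyte markers differed by -0.43 (0 of 12 called, exact two-sided permutation p = 0.0839), that of the mesangial and smooth muscle markers by -0.32 (0 of 8 called, exact permutation p = 0.172), that of the endothelial markers by -0.23 (3 of 11 lower, exact permutation p = 0.101), that of the distal nephron markers by -0.25 (2 of 12 lower, exact permutation p = 0.0954) and that of the cycling cell markers by -0.13 (0 of 9 called, exact permutation p = 0.573). None of these 5 lists passed an unadjusted threshold of 0.05.

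The spread of the 10 genes within a group also differed between groups. The coefficient of variation of Inf2 in CPM was 31.0% in young, 12.7% in saline and 8.71% in MCC950 libraries, that of Actn4 was 13.4%, 5.63% and 8.01%, and that of Podxl was 33.7%, 22.9% and 29.3%. These differences in spread were not tested. In none of the 30 combinations of gene and group did a single library stand apart from the rest by Dixon's criterion, which chance alone would meet in about 1 of 20 groups.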
